A study of Homo sapiens with 6 samples.

Results

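The cadherin and protocadherin genes of the human melanoma cell line A375 were examined after knockout of the kinase gene RIPK4. They comprise every gene of the deposited count table named CDH with a number or with a symbol starting with PCDH, suffixed scaffold copies excluded, and number 82 of 20851 genes listed. RNA-seq (poly(A)-selected, strand-specific libraries) had been run on 3 replicates of A375RIPK4.KO cells, the subline titled RIPK4_KO and labelled as treated by RIPK4 knockout, and on 3 replicates of A375neg cells, titled NEG_KO_GFP and labelled as a GFP control. Both sublines were made from A375 with the CRISPR/Cas9 system and lentiviral guides, and the A375RIPK4.KO libraries came from 1 knockout clone, so an effect of RIPK4 and a difference between clones cannot be told apart in any comparison here. The replicates are described as independent biological ones; how their cultures were kept apart is not given in the sources used here, and p-values measure the spread between these libraries.

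Classical cadherins are calcium-dependent adhesion proteins that bind their like on the neighbouring cell and hold the actin cytoskeleton through catenins. In the melanocyte lineage, E-cadherin links the melanocyte to keratinocytes, and melanoma cells commonly carry N-cadherin (CDH2) in its place. Protocadherins lack the catenin-binding tail. The non-clustered ones (delta-1, delta-2 and a few others) stand alone in the genome, whereas the alpha, beta and gamma genes lie side by side in 1 stretch of chromosome 5 and are known from neurons, where each cell uses its own choice of promoters from the stretch to recognise itself. Each alpha and gamma gene joins its own first exon to constant exons shared by its cluster, and each beta gene is a single exon.

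The 82 genes were 12 classical cadherins (2 of type I and 10 of type II), 3 atypical cadherins, 4 delta-1, 4 delta-2 and 3 other non-clustered protocadherins, 15 alpha, 15 beta and 22 gamma genes, 3 beta pseudogenes and the non-coding transcript PCDH10-DT. CDH1 (E-cadherin), CDH4, CDH11 and CDH15 were not among the 82 and so have no counts here. Total counts per library ran from 21882863 to 26694140, so 3 counts, the most that a count of 0 allows, stood for 0.112 to 0.137 CPM (each library rescaled to the same total; counting error only). RIPK4 itself had 319, 368 and 404 raw counts in A375neg and 42, 51 and 61 in A375RIPK4.KO, a log2 fold change of -2.69 with a standard error (SE) of 0.17 (edgeR adjusted p = 1.01e-05). Of 8 melanocytic markers, 4 were listed in the count table, and MLANA, TYR, DCT and PRAME were not. SOX10 had 8844 to 10056 counts in A375neg and 7448 to 7858 in A375RIPK4.KO (edgeR adjusted p = 0.0507). The pigment gene PMEL had 3 to 22 counts in the 6 libraries. MITF (log2 fold change -0.44, edgeR adjusted p = 0.0449) and S100B (-0.89, adjusted p = 0.036) were lower in A375RIPK4.KO. Of 5 epithelial markers, 3 were above 3 counts in every library, and the 5 summed to 22570 to 23670 normalized counts in A375neg and 21450 to 26300 in A375RIPK4.KO, nearly all from KRT18. KRT14 fell, from 461, 607 and 504 counts to 121, 158 and 147 (log2 fold change -1.75, adjusted p = 3.46e-05), whereas EPCAM had at most 6 counts. Of other cell types, the leukocyte gene PTPRC had at most 3 counts. The 2 leukocyte markers in the table, nearly all LYZ, summed to 33.16 to 37.99 normalized counts in A375neg and 0 to 14.21 in A375RIPK4.KO. The 4 fibroblast markers summed to 184.0 to 226.5 and 152.1 to 158.7, mostly PDGFRB (means 142.4 and 131.7). The means of COL1A1 (22.57 and 8.918), LUM (24.8 and 9.419) and DCN (13.37 and 5.261) were lower in A375RIPK4.KO, and none of these was called. The part of other cell types in the results was not tested. A375RIPK4.KO replicate 2 stood apart from the other replicates of its group on the second principal component, which held 14.9% of the variance.

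Differences were tested with the quasi-likelihood test of edgeR on the 14443 genes with enough counts, and a gene is called here at a Benjamini-Hochberg adjusted p under 0.05 and a change of at least 1.5-fold. Of the 82 genes, 55 had enough counts to be tested and 27 did not. Among those tested, 10 were called higher and 7 lower in A375RIPK4.KO, against 4.39% of all tested genes called higher and 4.65% called lower. Called genes were 30.9% of the 55, against 9.04% of all genes. Without the limit on the fold change, 12 genes were higher (background 8.4%) and 8 lower (background 8.24%). Because 9 of the 55 had enough counts only in A375RIPK4.KO and 4 only in A375neg, a filter of this kind favours genes that differ, and the counts were repeated over genes whose raw counts averaged 50 or more. Of 25 such genes, 6 were called higher and 4 lower, against 3.81% and 4.43% of the 11688 genes of that abundance (8.24% either way). By adjusted p alone, 8 of them were higher and 5 lower, against 8.98% and 9.0% of all such genes. DESeq2 called 10 of the 55 higher and 6 lower, against 4.45% and 4.67% of all genes (9.13% either way). The median log2 fold change of the 55 was 0.23, and that of all tested genes was -0.0047.

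**Figure D1:**
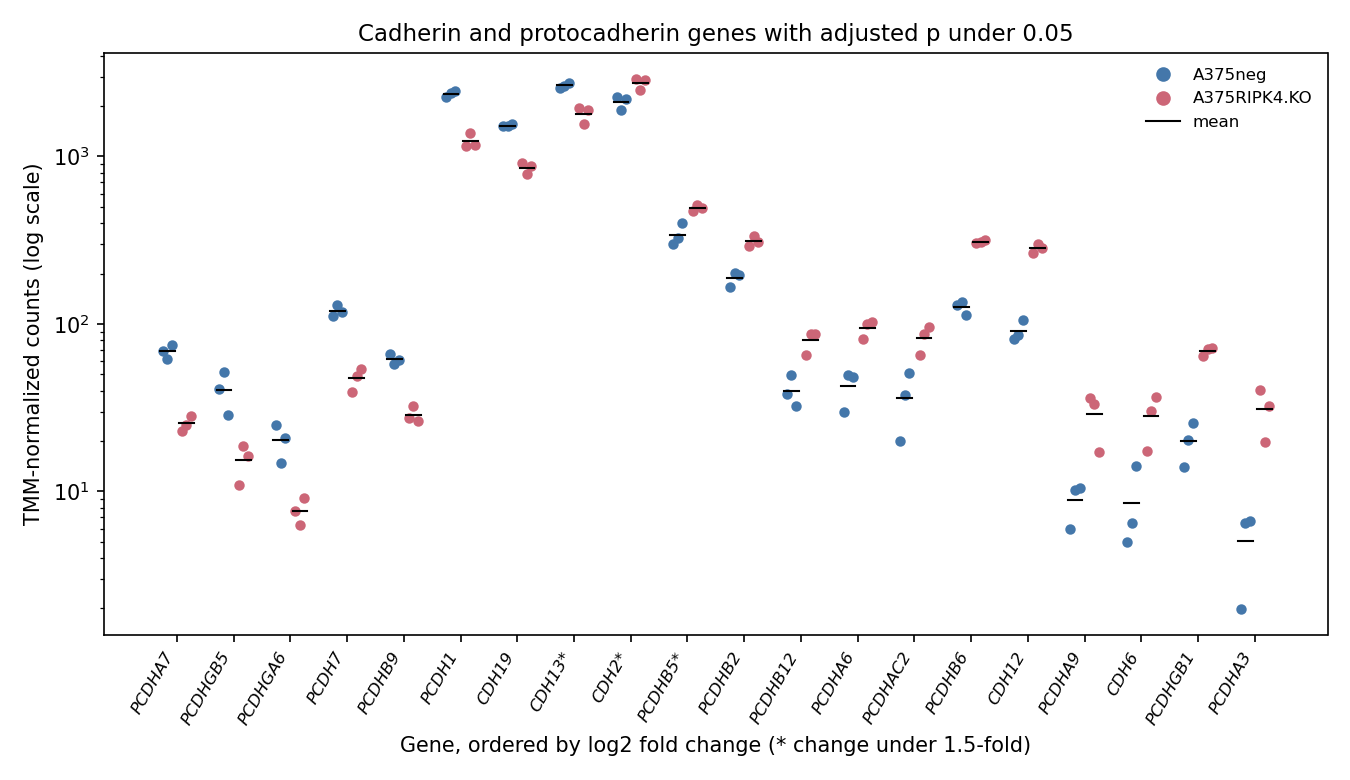
TMM-normalized counts (log scale) of the 20 cadherin and protocadherin genes with an adjusted p under 0.05, ordered by log2 fold change. Each point is a library (3 A375neg in blue, 3 A375RIPK4.KO in red), black lines are means, and an asterisk marks the 3 genes that changed by less than 1.5-fold. The red and blue points do not overlap for any of the 20 genes.

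The plot of the 20 genes with an adjusted p under 0.05 shows that each of them had separate groups, with 12 genes higher and 8 lower in A375RIPK4.KO. The 20 were chosen by their p in these same libraries, so this separation follows in large part from that choice. Across all 55 tested genes, 31 had normalized counts that did not overlap between the groups (56.4%, against 36.5% of all tested genes). Of the 55, 9 had enough counts only in A375RIPK4.KO and 4 only in A375neg, and such a filter favours genes that differ. This share was not repeated at a higher minimum count. With 3 libraries a group, an exact permutation test of a single gene cannot go below p = 0.1, so each single-gene p given here comes from the edgeR model fitted across all genes. In bulk RNA, fewer cells that carry a transcript and less of it in each cell cannot be told apart.

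Among the classical cadherins, CDH12 rose, CDH6 rose from near the lower limit, CDH19 fell and CDH2 rose by less than 1.5-fold. CDH2 (N-cadherin, type I) had 2253, 2068 and 2312 raw counts in A375neg and 2637, 2390 and 2817 in A375RIPK4.KO. After normalization the groups did not overlap, 2116 ± 185.6 (SD, n = 3) against 2744 ± 216.7, a log2 fold change of 0.38 with an SE of 0.09 (adjusted p = 0.016). The adjusted p was 0.0713 without A375neg replicate 2 and 0.0606 without A375RIPK4.KO replicate 3. These counts are of RNA. By Western blot, the paper reports reduced N-cadherin protein in its A375 knockout clones. CDH3 (P-cadherin), the other type I gene listed, had 0, 5 and 1 counts in A375neg and 0, 2 and 5 in A375RIPK4.KO and was not tested.

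CDH19, a type II cadherin known from Schwann cell precursors of the neural crest, was the most abundant type II gene in A375neg. It had 1512, 1641 and 1640 raw counts there and 831, 754 and 862 in A375RIPK4.KO. Every knockout library lay below every control library, with a log2 fold change of -0.83 with an SE of 0.07 (adjusted p = 7.83e-05), a 1.78-fold fall. CDH12, a type II cadherin known mainly from brain, went the other way. Its raw counts were 81, 93 and 111 in A375neg and 243, 289 and 282 in A375RIPK4.KO, a log2 fold change of 1.65 with an SE of 0.16 (adjusted p = 0.000129), or 3.135-fold. CDH6 (K-cadherin), first known from kidney, had 5, 7 and 15 counts in A375neg and 16, 29 and 36 in A375RIPK4.KO, a log2 fold change of 1.70 with an SE of 0.48 (adjusted p = 0.0409). Only the knockout libraries carried CDH6 past the low-count filter, and its adjusted p rose to between 0.0678 and 0.152 without A375neg replicate 1, A375neg replicate 2, A375RIPK4.KO replicate 2 or A375RIPK4.KO replicate 3.

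CDH24, a catenin-binding type II cadherin, had 171, 198 and 150 counts in A375neg and 163, 114 and 147 in A375RIPK4.KO, with overlapping groups and an adjusted p of 0.64. The other 6 type II genes were too low to test. CDH7, known from migrating neural crest, had 0 counts in all 3 A375neg libraries and 8, 11 and 0 in A375RIPK4.KO, so that its mean was at least 2.35-fold higher against 3 counts per library in A375neg. A375RIPK4.KO replicate 3 was thus at 0 like the control libraries. CDH5 (VE-cadherin), the endothelial cadherin, had 7, 7 and 14 counts in A375neg and 4, 2 and 0 in A375RIPK4.KO. Of the endothelial markers, PECAM1 fell as well, with 21, 23 and 24 counts in A375neg and 4, 5 and 5 in A375RIPK4.KO. VWF had at most 5 counts anywhere, with overlapping groups. The 3 markers, CDH5 among them, summed to 31.99 to 36.02 normalized counts in A375neg and 6.083 to 12.02 in A375RIPK4.KO. Their part in the CDH5 counts was not tested. CDH8, CDH10, CDH18 and CDH22 had 0 to 9 counts per library, with overlapping groups. CDH8 had 3, 7 and 2 counts in A375neg and 4, 5 and 8 in A375RIPK4.KO. CDH10 had 0, 5 and 9 against 4, 2 and 0 counts, and CDH18 had 8, 0 and 3 against 4, 4 and 4.

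Of the atypical cadherins, CDH13 was the only one tested, and it fell by slightly less than 1.5-fold. CDH13 (T-cadherin) is held in the membrane by a lipid anchor and has no cytoplasmic tail for catenins. Its raw counts were 2557, 2872 and 2915 in A375neg and 1783, 1491 and 1878 in A375RIPK4.KO. The groups were separate, 2655 ± 103.5 against 1803 ± 214.9 normalized counts (SD, n = 3), a log2 fold change of -0.56 with an SE of 0.09 (adjusted p = 0.00255), or 1.47-fold. It passed the 1.5-fold limit without A375RIPK4.KO replicate 1 or without A375RIPK4.KO replicate 3, and the log2 fold change ran from -0.62 to -0.46 with each library left out. CDH23, a protein of the tip links of inner-ear hair cells, had 0 to 2 counts. CDH26 had 0, 5 and 1 counts in A375neg and 1, 0 and 1 in A375RIPK4.KO.

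**Figure D2:**
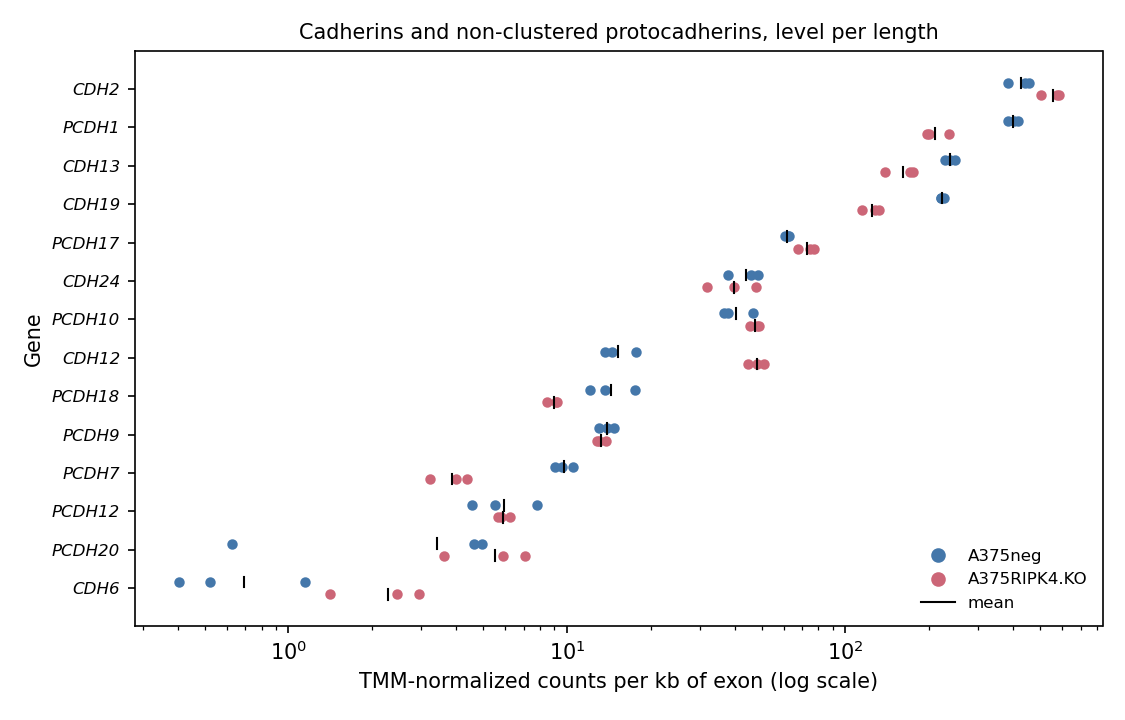
Levels per length of the 14 tested cadherins and non-clustered protocadherins, as TMM-normalized counts per kb of exon (log scale). Points are libraries (A375neg blue, A375RIPK4.KO red) and black ticks are means. CDH2, PCDH1, CDH13 and CDH19 lie above 100 in every library, and CDH6 lies lowest in A375neg.

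The levels per length place the genes on 1 scale. In A375neg, CDH2 stood at 427.5 normalized counts per kb of exon, PCDH1 at 400.8, CDH13 at 237.3 and CDH19 at 222.3, and the libraries of CDH2 and PCDH1 overlapped in range there. In A375RIPK4.KO the order of these 4 genes was unchanged, with levels of 554.3, 209.9, 161.2 and 124.8 per kb. Every A375RIPK4.KO library of CDH2 thus lay above every library of the other 3 genes. CDH12 moved from 15.3 to 48.0 per kb, the range of CDH24 (44.1 and 39.7) and PCDH10 (40.3 and 47.5), and CDH6 from 0.691 to 2.27 per kb.

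The non-clustered protocadherins held 2 called genes among 8 tested, against 9.04% of all tested genes. Both were of the delta-1 type and lower in A375RIPK4.KO. Delta-1 protocadherins carry a cytoplasmic motif that binds protein phosphatase 1. PCDH1, known from airway epithelium, had 2257, 2585 and 2597 raw counts in A375neg and 1059, 1326 and 1158 in A375RIPK4.KO. It fell 1.91-fold, a log2 fold change of -0.93 with an SE of 0.08 (adjusted p = 8.3e-05), with every knockout library below every control library. PCDH1 lies on chromosome 5 beyond the gamma genes, on the opposite strand. PCDH7 had 111, 140 and 124 counts in A375neg and 36, 47 and 53 in A375RIPK4.KO. Its log2 fold change was -1.33 with an SE of 0.20 (adjusted p = 0.00189), a 2.51-fold fall with separate groups.

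The third delta-1 gene tested, PCDH9, had 405, 469 and 480 counts in A375neg and 363, 385 and 423 in A375RIPK4.KO, and the normalized groups overlapped (adjusted p = 0.641). PCDH11X, the X-linked delta-1 gene, was too low for the test, with 4, 8 and 7 counts in A375neg and 0 in all 3 A375RIPK4.KO libraries. That is at least 1.905-fold lower against 3 counts per library, and it was called lower when no low-count filter was set (adjusted p = 0.039).

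Delta-2 protocadherins recruit the WAVE complex, which drives actin branching, and 0 of 3 tested were called in edgeR or DESeq2, with 1 higher and 1 lower at an unadjusted p under 0.05 in edgeR. PCDH18 came nearest, with 81, 99 and 124 counts in A375neg and 56, 59 and 56 in A375RIPK4.KO, a log2 fold change of -0.69 with an SE of 0.21 (adjusted p = 0.0528). It was called lower over genes averaging 50 or more counts (adjusted p = 0.0489) and with scaffold copies summed (adjusted p = 0.0472). PCDH17 had 517, 549 and 549 counts against 587, 537 and 613, separate after normalization, with a log2 fold change of 0.24 with an SE of 0.08 (adjusted p = 0.0789, and 0.0239 without A375RIPK4.KO replicate 2). PCDH10 had 372, 512 and 407 counts in A375neg and 423, 469 and 489 in A375RIPK4.KO, and its groups overlapped (adjusted p = 0.188). Its divergent non-coding neighbour PCDH10-DT had 5, 3 and 10 against 6, 8 and 6 counts and was not tested. PCDH19, the gene of an X-linked epilepsy, had 2, 8 and 8 against 2, 3 and 4 counts.

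The remaining 3 non-clustered genes had overlapping groups. PCDH12, a protocadherin of endothelium, had 31, 41 and 56 counts in A375neg and 39, 38 and 38 in A375RIPK4.KO. PCDH20 had 3, 24 and 25 against 31, 27 and 17, with A375neg replicate 1 far below the other libraries. PCDH15, the partner of CDH23 in hair cells, had 4, 2 and 10 against 8, 2 and 5 and was not tested.

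The clustered protocadherins gave 12 of the 17 called genes, 8 higher and 4 lower, among 39 tested of 52 coding genes listed. That was 30.8% of those tested, against 30.9% over the whole family and 9.04% of all tested genes. Of the 39, 10 had enough counts in 1 group only. The listed exons of the clustered genes span chr5:140786136-141491700 of GRCh38.p13. Promoter windows of RefSeq (GRCh38.p14, 300 bases, 250 before and 50 after the start) existed for 65 of the 82 genes and for 14 of the 17 called ones; the others were CDH6, PCDHA3 and PCDHB6. The 250 bases before the start are printed for the 5 called genes with the largest change whose start in RefSeq and in the count table was the same, a rule that passed over PCDHA9, where they lay 610 bases apart. They show the short box that recurs in promoters of the clusters and is present in genes of either direction. They are PCDHGB1 (chr5:141349849-141350098, plus strand, called higher), CDH12 (chr5:22853345-22853594, minus strand, called higher), PCDHA7 (chr5:140834019-140834268, plus strand, called lower), PCDHGB5 (chr5:141397697-141397946, plus strand, called lower) and PCDHGA6 (chr5:141373641-141373890, plus strand, called lower). Capitals mark the box of the gene's own cluster, and CDH12 belongs to none.
PCDHGB1: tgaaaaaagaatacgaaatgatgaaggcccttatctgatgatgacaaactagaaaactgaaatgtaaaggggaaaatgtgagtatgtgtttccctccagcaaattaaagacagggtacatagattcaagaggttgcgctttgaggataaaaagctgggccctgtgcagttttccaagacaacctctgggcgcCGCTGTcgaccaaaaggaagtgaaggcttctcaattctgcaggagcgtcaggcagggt
CDH12: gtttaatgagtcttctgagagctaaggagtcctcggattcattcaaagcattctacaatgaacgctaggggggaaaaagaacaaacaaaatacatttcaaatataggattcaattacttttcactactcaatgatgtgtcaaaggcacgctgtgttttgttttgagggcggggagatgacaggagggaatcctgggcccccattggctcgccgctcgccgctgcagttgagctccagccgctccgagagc
PCDHA7: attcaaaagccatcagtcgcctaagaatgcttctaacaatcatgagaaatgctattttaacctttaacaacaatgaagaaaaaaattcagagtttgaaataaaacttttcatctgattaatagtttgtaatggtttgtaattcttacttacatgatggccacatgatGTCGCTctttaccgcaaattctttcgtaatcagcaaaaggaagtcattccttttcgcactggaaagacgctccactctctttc
PCDHGB5: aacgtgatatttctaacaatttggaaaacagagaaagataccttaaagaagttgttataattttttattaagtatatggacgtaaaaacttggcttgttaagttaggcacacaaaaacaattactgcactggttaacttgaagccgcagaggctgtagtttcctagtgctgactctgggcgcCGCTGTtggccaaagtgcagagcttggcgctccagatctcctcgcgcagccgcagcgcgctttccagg
PCDHGA6: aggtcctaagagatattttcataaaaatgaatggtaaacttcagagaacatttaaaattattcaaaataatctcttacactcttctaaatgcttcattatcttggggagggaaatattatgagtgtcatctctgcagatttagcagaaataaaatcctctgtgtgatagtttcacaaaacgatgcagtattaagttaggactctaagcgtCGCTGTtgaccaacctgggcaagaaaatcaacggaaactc

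The box began 58 bases before the start in PCDHGB1, 83 in PCDHA7, 68 in PCDHGB5 and 40 in PCDHGA6. For each cluster it is the run of 6 letters around CGCT, the core of the sequence element known from these promoters, that the most windows of the cluster held on the gene's strand, so its high share in its own cluster follows from that choice. The 3 boxes overlap one another in CGCT, and shares over both strands are given. GTCGCT occurred in 11 of 13 alpha windows and in 7.97% of all 35116 windows. GGCGCT occurred in 13 of 13 beta windows and in 21.7% of all. CGCTGT occurred in 17 of 20 gamma windows, in 7 alpha windows, in 1 beta window and in 11.2% of all, and was also among the letters of CDH12. CGCT alone was in 70.0% of all windows and in 45 of the 46 clustered ones. The box of the own cluster was in the windows of PCDHA6 (called higher) and PCDHA7 (called lower), of PCDHB2 and PCDHB12 (higher) and PCDHB9 (lower), and of PCDHGB1 (higher) and PCDHGA6 and PCDHGB5 (lower). It was not found in those of PCDHA9 and PCDHAC2, both called higher. The PCDHA9 window (chr5:140848132-140848431) lay inside the exon listed in the count table, so the bases before that exon were not searched. The E-box CAGGTG, to which Snail and ZEB repressors bind, was in 20.6% of all windows, in 3 of the 46 clustered ones, and among the called genes in PCDH1. GC content was low in the clusters, with a median of 37.3% in alpha, 39.7% in beta and 42.0% in gamma windows against 58.7% in all.

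**Figure D3:**
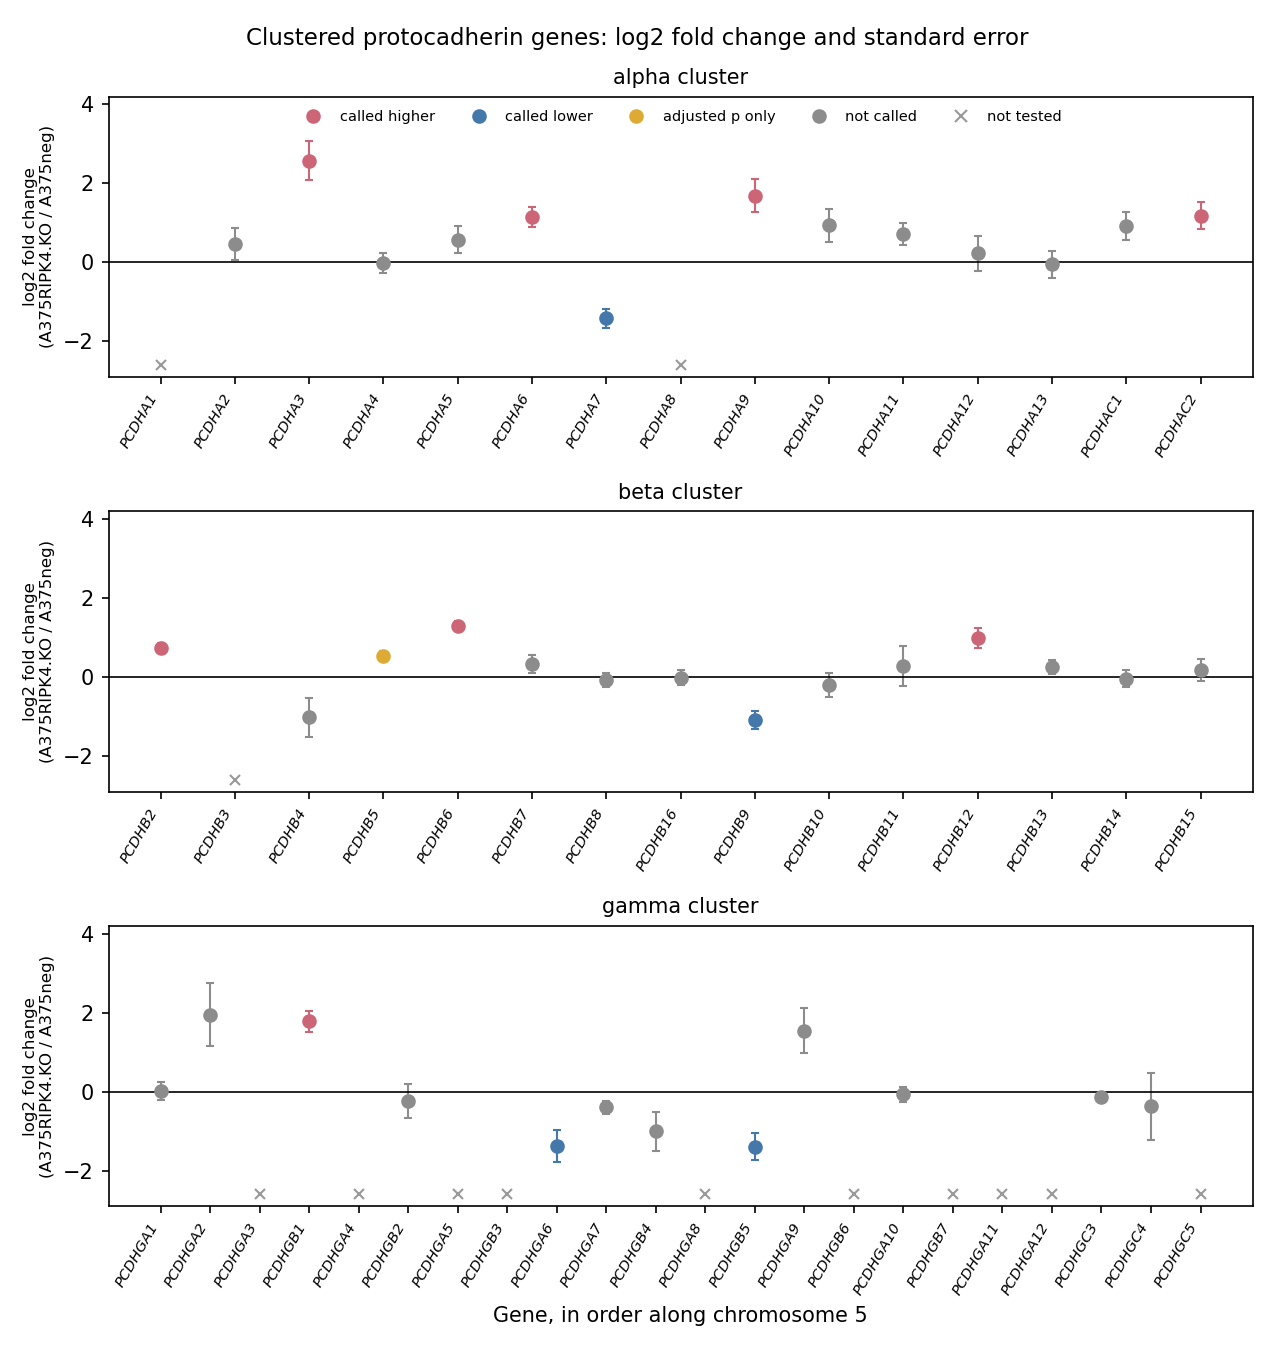
Log2 fold change (A375RIPK4.KO over A375neg) with its standard error for the alpha, beta and gamma genes in their order along chromosome 5. Red and blue points are genes called higher and lower, yellow is an adjusted p under 0.05 with a change under 1.5-fold, grey is not called, and crosses at the bottom mark genes not tested, which have no value. Called genes of both directions occur in each cluster, and PCDHA6 (1.14) and PCDHA7 (-1.42) are neighbours.

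In the alpha cluster, 4 of 13 tested genes were called higher and 1 lower, against 4.39% and 4.65% of all tested genes. PCDHA7 had 69, 67 and 79 raw counts in A375neg and 21, 24 and 28 in A375RIPK4.KO, a log2 fold change of -1.42 with an SE of 0.23 (adjusted p = 0.00289). Its upstream neighbour PCDHA6 had 30, 54 and 51 counts in A375neg and 74, 96 and 101 in A375RIPK4.KO, a log2 fold change of 1.14 with an SE of 0.25 (adjusted p = 0.0131). The order along chromosome 5 thus set a gene 2.68-fold lower beside a gene 2.21-fold higher. As a share of all alpha counts, PCDHA7 went from 16.8% to 22.5% in the A375neg libraries, the first of the cluster by mean share, to 4.42% to 5.22% in A375RIPK4.KO. PCDHA6 took 9.8% to 13.5% in A375neg and 15.6% to 20.1% in A375RIPK4.KO, where it was first.

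PCDHA3 had the largest increase of all 55 genes, from 2, 7 and 7 counts to 37, 19 and 32, a log2 fold change of 2.58 with an SE of 0.49 (adjusted p = 0.0068). Its first exon lies at chr5:140801057-140803591 of GRCh38.p13. PCDHA9 went from 6, 11 and 11 counts to 33, 32 and 17, a log2 fold change of 1.68 with an SE of 0.42 (adjusted p = 0.025). Both passed the low-count filter through the knockout libraries alone. PCDHAC2, the last gene of the cluster and one of the C-type genes, which are known to be used by every neuron, had 20, 41 and 54 counts in A375neg and 60, 84 and 94 in A375RIPK4.KO, a log2 fold change of 1.19 with an SE of 0.33 (adjusted p = 0.0401). PCDHA9 lost its call when any library but A375RIPK4.KO replicate 3 was left out, with adjusted p values of 0.0561 to 0.0854 and log2 fold changes of 1.48 to 1.81. PCDHAC2 lost its call without A375neg replicate 1, A375neg replicate 2 or A375RIPK4.KO replicate 3, with adjusted p values of 0.0829 to 0.128 and log2 fold changes of 0.90 to 1.21. PCDHA6 reached 0.054 without A375RIPK4.KO replicate 3.

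The other 8 tested alpha genes had adjusted p values of 0.114 to 0.971. Of these, PCDHA11 (22, 28 and 19 against 36, 36 and 32 counts) and PCDHAC1 (16, 29 and 13 against 37, 35 and 28) had separate groups with the knockout libraries above. The groups of PCDHA10 (12, 20 and 21 against 45, 17 and 30 counts), PCDHA5 (43, 35 and 30 against 41, 33 and 74) and PCDHA2 (9, 14 and 17 against 19, 19 and 12) overlapped. So did those of PCDHA12 (19, 7 and 14 against 15, 14 and 14), PCDHA4 (38, 56 and 54 against 36, 48 and 49) and PCDHA13 (15, 19 and 14 against 15, 12 and 15). PCDHA10 was called higher without A375RIPK4.KO replicate 2 (adjusted p = 0.0497). PCDHA1, with 5, 9 and 0 against 4, 8 and 6 counts, and PCDHA8, with 0 to 4 counts, were not tested.

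In the beta cluster, 3 of 14 tested genes were called higher and 1 lower, against 4.39% and 4.65% of all tested genes. The most abundant beta gene, PCDHB5, rose by less than 1.5-fold. PCDHB6 had 129, 146 and 120 counts in A375neg and 278, 297 and 311 in A375RIPK4.KO, a log2 fold change of 1.30 with an SE of 0.13 (adjusted p = 0.000185), or 2.46-fold. Its exon lies at chr5:141150057-141153287 of GRCh38.p13. PCDHB2, the first beta gene listed, had 167, 219 and 206 counts against 266, 320 and 306, a log2 fold change of 0.73 with an SE of 0.13 (adjusted p = 0.0048). In both genes every knockout library lay well above every control library. PCDHB12 had 38, 54 and 34 counts against 60, 83 and 86, a log2 fold change of 0.99 with an SE of 0.25 (adjusted p = 0.0238). PCDHB5 had 300, 352 and 423 counts against 433, 492 and 485, a log2 fold change of 0.53 with an SE of 0.12 (adjusted p = 0.0163).

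PCDHB9 was the one beta gene called lower, with 66, 63 and 64 counts in A375neg and 25, 31 and 26 in A375RIPK4.KO, a log2 fold change of -1.10 with an SE of 0.23 (adjusted p = 0.0105). Without A375RIPK4.KO replicate 3 its adjusted p was 0.0518. The adjusted p of PCDHB12 was 0.0775 to 0.089 without A375neg replicate 1, A375neg replicate 3 or A375RIPK4.KO replicate 3, and that of PCDHB5 was 0.0524 to 0.0716 without A375neg replicate 1, A375neg replicate 2 or A375RIPK4.KO replicate 3. Without A375neg replicate 3, PCDHB5 passed the 1.5-fold limit as well, with a log2 fold change of 0.66.

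The other 9 tested beta genes had adjusted p values of 0.204 to 0.961. PCDHB4 (13, 14 and 18 against 9, 3 and 8 counts) had separate groups with the knockout libraries below, and PCDHB13 (72, 83 and 83 against 78, 97 and 83) had separate normalized groups with them above. Only the control libraries carried PCDHB4 past the low-count filter. The groups of PCDHB7 (75, 102 and 59 against 88, 97 and 86), PCDHB8 (116, 167 and 158 against 130, 123 and 126) and PCDHB16 (78, 110 and 105 against 75, 94 and 94) overlapped. The same held for PCDHB10 (37, 47 and 41 against 19, 40 and 40), PCDHB11 (6, 16 and 18 against 14, 8 and 22), PCDHB14 (49, 53 and 52 against 44, 41 and 51) and PCDHB15 (30, 29 and 26 against 22, 29 and 37). PCDHB3 had 0 to 4 counts. Of the pseudogenes, PCDHB17P had 29, 17 and 32 against 36, 44 and 54 counts (adjusted p = 0.0874), PCDHB18P had 7, 11 and 25 against 14, 20 and 32 (adjusted p = 0.369), and PCDHB19P had 1 to 4. The beta genes and pseudogenes are close paralogues, so reads that match several of them may have been split or dropped by the authors' counting.

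In the gamma cluster, 1 of 12 tested genes was called higher and 2 lower, against 4.39% and 4.65% of all tested genes. PCDHGC3, the cluster's dominant gene, was not called. PCDHGB1 had 14, 22 and 27 counts in A375neg and 59, 68 and 71 in A375RIPK4.KO, a log2 fold change of 1.78 with an SE of 0.27 (adjusted p = 0.00217), or 3.445-fold. PCDHGB5 had 41, 56 and 30 counts against 10, 18 and 16, a log2 fold change of -1.39 with an SE of 0.35 (adjusted p = 0.0251). PCDHGA6 had 25, 16 and 22 counts against 7, 6 and 9, a log2 fold change of -1.38 with an SE of 0.41 (adjusted p = 0.0485), and only the control libraries carried it past the low-count filter. These were low counts, and both lower calls were lost when libraries were left out. The adjusted p of PCDHGA6 was 0.0731 to 0.155 with any 1 library left out and 0.112 in DESeq2. That of PCDHGB5 was 0.0696 to 0.12 without A375neg replicate 1, A375neg replicate 2, A375RIPK4.KO replicate 1 or A375RIPK4.KO replicate 3.

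PCDHGC3, a C-type gene, had 1941, 2043 and 2033 counts in A375neg and 1534, 1720 and 1727 in A375RIPK4.KO. It held 74.8% to 78.6% of all gamma counts in every library, and its normalized count of 1917 ± 30.71 in A375neg and 1741 ± 59.93 in A375RIPK4.KO (SD, n = 3) gave a log2 fold change of -0.14 with an SE of 0.06 (adjusted p = 0.147). The groups did not overlap, but the difference missed the threshold. PCDHGA9 had 30, 8 and 5 counts in A375neg and 31, 45 and 41 in A375RIPK4.KO. A375neg replicate 1 stood near the knockout libraries, and the adjusted p of PCDHGA9 went from 0.104 to 0.00442 without that library. Across the fits with 1 library left out it ran from 0.00442 to 0.276, and only that 1 fit was under 0.05. Only the knockout libraries carried PCDHGA9 past the low-count filter.

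Of the other gamma genes tested, PCDHGA7 (158, 161 and 186 against 113, 131 and 107 counts) had separate groups with the knockout libraries below (adjusted p = 0.145). PCDHGA2 (10, 4 and 0 against 13, 11 and 27) had them above (adjusted p = 0.135), and only the knockout libraries carried it past the low-count filter. The groups overlapped for PCDHGA10 (152, 116 and 152 against 106, 121 and 141), PCDHGA1 (73, 70 and 81 against 52, 83 and 72) and PCDHGB4 (26, 15 and 23 against 11, 4 and 14). They also overlapped for PCDHGB2 (15, 19 and 16 against 6, 17 and 16) and PCDHGC4 (17, 16 and 3 against 18, 6 and 1). The 10 gamma genes not tested had 0 to 15 counts per library. PCDHGA4 had 8, 12 and 10 counts in A375neg and 7, 10 and 14 in A375RIPK4.KO, PCDHGB7 had 2, 10 and 14 against 8, 5 and 15, and PCDHGC5 had 6, 4 and 11 against 15, 2 and 6. PCDHGA12 had 0, 2 and 3 against 10, 2 and 2 counts, PCDHGB3 had 0, 3 and 0 against 10, 0 and 6, and PCDHGB6 had 4, 5 and 4 against 7, 6 and 8, the one of the 10 with separate groups. PCDHGA3 had 6, 3 and 0 against 0, 1 and 1 counts, PCDHGA5 had 0, 4 and 3 against 5, 3 and 7, PCDHGA8 had 2, 5 and 6 against 5, 2 and 3, and PCDHGA11 had 3, 4 and 0 against 6, 2 and 5.

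**Figure D4:**
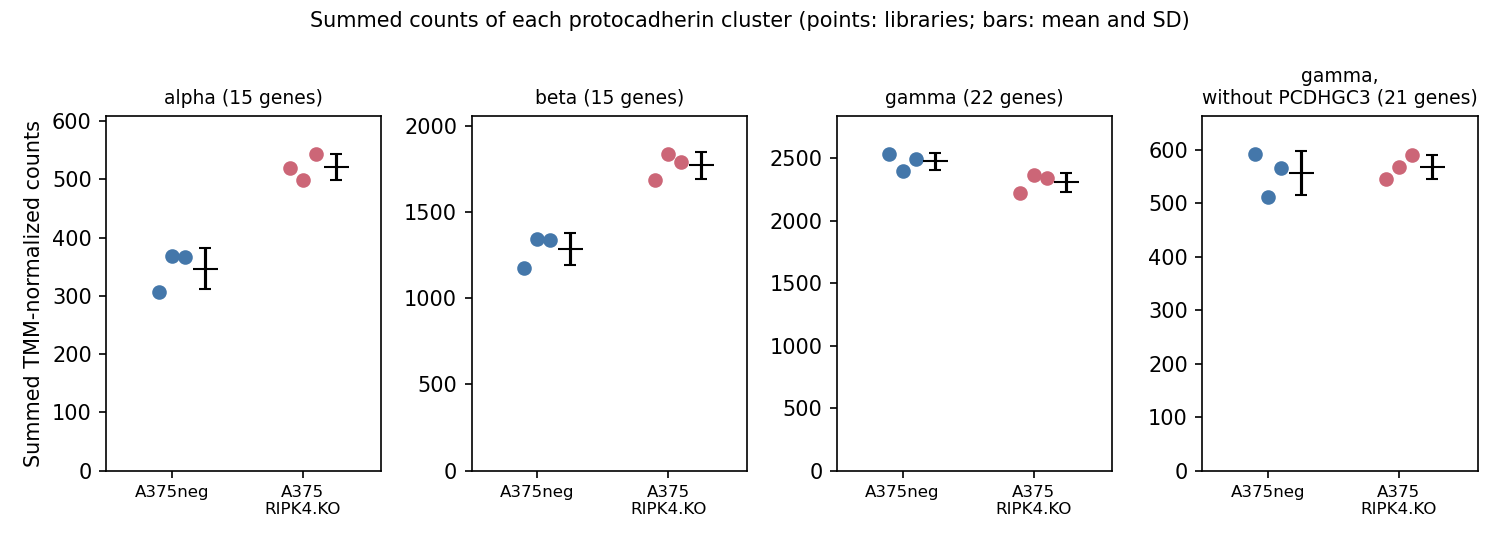
Summed TMM-normalized counts of the alpha, beta and gamma genes and of the gamma genes without PCDHGC3, each on its own axis from 0. Points are libraries (A375neg blue, A375RIPK4.KO red), and bars are the mean and SD of 3. The alpha and beta sums are higher in each A375RIPK4.KO library than in any A375neg library, whereas the sums of the gamma genes without PCDHGC3 overlap.

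Summed over a cluster, the alpha and beta genes were higher in A375RIPK4.KO, and the gamma genes were lower, with overlapping libraries once PCDHGC3 was left out. The 15 alpha genes together had 306, 399 and 386 raw counts in A375neg and 475, 478 and 536 in A375RIPK4.KO. Their normalized sum was 346.5 ± 35.09 against 520.5 ± 22.29 (SD, n = 3), 1.502-fold higher. The 15 beta genes had 1176, 1455 and 1409 against 1541, 1758 and 1765 counts, a normalized sum of 1284 ± 93.62 against 1770 ± 77.26, or 1.38-fold higher. PCDHB5 held 24.2% to 30.0% of beta counts in every library and rose with the sum, from a mean of 341.7 to 492.9 normalized counts. PCDHB6 rose from 125.7 to 309.7, and its mean share went from 9.84% in A375neg to 17.5% in A375RIPK4.KO. By the sign of the log2 fold change, 8 of the 14 tested beta genes were higher and 6 lower. The 22 gamma genes had 2533, 2598 and 2629 against 2033, 2263 and 2309 counts, with a normalized sum of 2473 ± 71.65 in A375neg and 2308 ± 75.48 in A375RIPK4.KO. Without PCDHGC3 the sum was 556.0 ± 41.05 against 567.4 ± 22.34, with overlapping libraries. The sums are given without a test.

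In the GENCODE v29 annotation, 2 exons are shared by all 15 alpha genes and 2 by all 22 gamma genes, so that reads within them cannot be assigned to 1 gene. How the authors' counting treated such reads is not given in the sources used here. Of 31 other genes tested within 1 Mb of the clusters, cadherins and protocadherins excluded, 1 was called higher and 0 lower in edgeR and in DESeq2. In edgeR, 3 of the lower ones had an unadjusted p under 0.05. The median log2 fold change was 0.0026, with values from -0.88 to 0.67. Of the excluded genes, PCDH1 (called lower, log2 fold change -0.93) and PCDH12 (not called, -0.01) lie beyond the gamma genes within that distance. On chromosome 5 as a whole, the 31 included and cadherins and protocadherins excluded, 32 of 647 tested genes were called higher and 37 lower, with a median of -0.02.

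The genes that work with cadherins and protocadherins were followed in 5 lists, to be read against the 9.04% of all tested genes called either way. Catenins and their actin links held 9 tested genes of 11, of which 1 was called. AFDN (afadin), which ties nectins and cadherins to actin, had 779, 846 and 788 counts in A375neg and 1279, 1046 and 1120 in A375RIPK4.KO, a log2 fold change of 0.65 with an SE of 0.10 (adjusted p = 0.00192). A further 3 passed the adjusted p alone. CTNNA1 (alpha-catenin) fell, with a log2 fold change of -0.37 (adjusted p = 0.00227), and VCL (vinculin, 0.35, adjusted p = 0.00327) and PKP4 (plakophilin 4, a p120-catenin relative, 0.37, adjusted p = 0.00451) rose. AFDN lost its call without A375RIPK4.KO replicate 1, when its log2 fold change was 0.54. CTNND2 (delta-catenin), named after its values were seen, had 15, 40 and 54 counts in A375neg and 85, 69 and 64 in A375RIPK4.KO, a log2 fold change of 1.15 with an SE of 0.39 (adjusted p = 0.0771). It was called higher in DESeq2 (adjusted p = 0.0269) and without A375neg replicate 3 (edgeR adjusted p = 0.0482).

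Among 10 genes of cadherin maturation and shedding (proprotein convertases, ADAM10 and gamma-secretase subunits), 1 was called higher and 1 lower, both proprotein convertases. PCSK6 had 3, 3 and 1 counts in A375neg and 58, 65 and 62 in A375RIPK4.KO. Its summed counts of 7 and 185, scaled by library totals, gave a ratio of 28.9 (95% exact interval 13.7 to 72.9, counting error only), and the edgeR adjusted p was 4.78e-05. PCSK5 had 110, 153 and 139 against 62, 73 and 90 counts, a log2 fold change of -0.70 with an SE of 0.19 (adjusted p = 0.0386), and its adjusted p was 0.0534 to 0.14 without A375neg replicate 2, A375neg replicate 3, A375RIPK4.KO replicate 1 or A375RIPK4.KO replicate 2.

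Of 7 tested repressors of cadherin genes, ZEB2 was called lower, with 503, 551 and 594 counts in A375neg and 271, 252 and 318 in A375RIPK4.KO, a log2 fold change of -0.84 with an SE of 0.11 (adjusted p = 0.000769). The other 6 (SNAI1, SNAI2, ZEB1, TWIST1, TCF3 and TCF4) did not pass the adjusted p. Among 15 genes known to control promoter choice in the protocadherin clusters (CTCF, cohesin and its loaders, DNA methyltransferases and others), DNMT3B, a de novo DNA methyltransferase, was called lower, with 188, 188 and 178 counts against 100, 112 and 99, a log2 fold change of -0.70 with an SE of 0.15 (adjusted p = 0.0127). Without A375neg replicate 1 its adjusted p was 0.0508, and without A375RIPK4.KO replicate 3 it was 0.0527. The cohesin subunit gene STAG1 rose by 0.25 on the log2 scale (adjusted p = 0.0187), and the other 13 did not pass.

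Protocadherin signalling genes (focal adhesion kinases and the WAVE complex) gave 0 calls in edgeR and in DESeq2 among 12 tested, of which 5 had an unadjusted p under 0.05 in edgeR. There was 1 call without A375RIPK4.KO replicate 2, of CYFIP1 as lower, a WAVE complex subunit named after its values were seen. CYFIP1 had 137, 36 and 605 counts in A375neg and 27, 212 and 27 in A375RIPK4.KO, with overlapping groups. Its edgeR adjusted p over all libraries was 0.389, and its log2 fold change ran from -3.11 to 0.13 with each library left out. Under the adjusted p alone, PTK2 (focal adhesion kinase) rose by 0.30 on the log2 scale (adjusted p = 0.0107), and CYFIP2, a WAVE complex subunit, fell by 0.39 (adjusted p = 0.0134). Elsewhere in the cadherin superfamily, 1 of 12 tested genes was called higher and 1 lower, against 4.39% and 4.65% of all tested genes. DCHS1, the ligand of the giant cadherin FAT4, had 31, 24 and 35 counts in A375neg and 64, 86 and 44 in A375RIPK4.KO, a log2 fold change of 1.24 with an SE of 0.31 (adjusted p = 0.026). Its adjusted p was 0.0543 to 0.101 when any library but A375RIPK4.KO replicate 3 was left out. CELSR3, a cadherin of planar cell polarity that crosses the membrane several times, had 781, 824 and 829 against 540, 385 and 513 counts, a log2 fold change of -0.62 with an SE of 0.13 (adjusted p = 0.00951). Its relative CELSR1 rose by 0.50 (adjusted p = 0.0222), under the 1.5-fold limit.

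The calls differed in how many of the fits kept them. CDH12, CDH19, PCDH1, PCDH7, PCDHB2 and PCDHB6 were called in all 13 alternative fits. PCDHA3, PCDHA7 and PCDHGB1 were called with each of the 6 libraries left out in turn, but had under 50 counts on average and were not tested at that minimum. The other 8 called genes lost their call in at least 1 fit with a library left out.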

How the data were processed

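Poly(A)-selected, strand-specific libraries of 3 A375neg and 3 A375RIPK4.KO samples were sequenced as read pairs. Per the labels, the authors' processing used cutadapt, FastQC, HISAT2, HTSeq and DESeq2 on GRCh38.p13. DESeq2 was the authors' statistical test. Tool versions, the other roles and counting options are not given in the sources used here. The deposited table holds whole-number raw counts per gene, which the authors did not normalize, and columns of normalized counts and of the authors' own test, which were not used. A gene is listed there with a total of at least 4 counts.

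Raw counts were tested in R 4.3.3 with edgeR 4.0.16 (filterByExpr, TMM, quasi-likelihood test, Benjamini-Hochberg adjustment over 14443 genes). Normalized counts are raw counts over the TMM-scaled library size relative to the mean. A standard error is the log2 fold change over the square root of F. Levels per kb used GENCODE v29 exon lengths. Promoters came from a RefSeq table of GRCh38.p14.

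Every tested gene of the family was named with raw counts, untested ones from 5 counts in any library, and partner genes with an adjusted p under 0.05. Members, lists and tests were chosen with earlier results of these data known. The steps were run on simulated counts, where 74% of 2-fold and 93% of 4-fold changes were recovered by edgeR over 14443 genes. Alternatives were DESeq2 1.42.0, its size factors, other count filters, a replicate block, removal of the length trend, summed copies and each library left out.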

Additional observations from a re-analysis of the deposited data

How the results depend on the processing

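Of the 17 calls, all were kept with DESeq2's size factors, with the length trend removed and with copies summed, and DESeq2 and the fit without a low-count filter lost PCDHGA6 alone. At a mean of at least 50 counts the numbers of genes called higher and lower fell from 10 and 7 to 6 and 4, because 8 called genes were no longer tested, and the number lower by adjusted p alone was 5. With each library left out there were 6 to 9 called higher and 5 to 6 lower, and by adjusted p alone 6 to 12 and 5 to 7; the 6 higher were those without A375RIPK4.KO replicate 3. In the lists of partner genes, calls went from 2 to 1 for the cadherin superfamily at a mean of at least 50 counts and for processing genes at that minimum or with no filter, and from 1 to 2 for catenins in DESeq2, which added CTNND2. With each library left out they were 1 to 2 for the superfamily and for processing, 0 to 2 for catenins, 0 to 1 for genes of cluster control and 0 to 1 for signalling.

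Signs turned for 12 genes. In the fits where they turned, log2 fold changes lay between -0.132 and 0.226, with adjusted p values of at least 0.674. Not all of the 12 were near 0 or closely measured in the main fit. There PCDHGC4 was at -0.37 with an SE of 0.86 and PCDHB11 at 0.28 with an SE of 0.51. With the length trend removed PCDHA4 was at 0.031 and PCDH12 at 0.0042 on the log2 scale, and with the replicate block PCDH12 was at 0.013. With each library left out, log2 fold changes ran from -0.10 to 0.61 for PCDHA12, -0.14 to 0.059 for PCDHA13, -0.15 to 0.089 for PCDHA4, -0.36 to 0.052 for PCDHB10, -0.10 to 0.57 for PCDHB11, -0.11 to 0.029 for PCDHB14, -0.13 to 0.058 for PCDHB16, -0.13 to 0.16 for PCDHGA1, -0.20 to 0.034 for PCDHGA10, -0.46 to 0.10 for PCDHGB2, -1.64 to 0.17 for PCDHGC4 and -0.17 to 0.23 for PCDH12. The cause was not tested.

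Same-numbered libraries of the 2 groups correlated at 0.08, 0.04 and -0.01 in their deviations from the group means, and not every library correlated best with its own number, so the numbers were not taken to pair them. The replicate block gave 9 genes called higher and 6 lower, without PCDHA9 (adjusted p = 0.0512) and PCDHGA6 (adjusted p = 0.08). Raw in place of normalized counts gave separate groups for 52.7% of the 55 tested genes of the family, against 38.2% of all tested genes. The low-count filter was the same for both shares. Counts under about 20 per library, common in the alpha and gamma clusters, limit what could be called there.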
